A study of Mus musculus with 48 samples.

Results

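Glycolysis and pyruvate metabolism were examined through 33 genes, found by name among the 27281 rows of a normalized RNA-Seq table. They are 2 glucose transporters, 2 lactate transporters, 9 enzymes of upper and 6 of lower glycolysis, 2 lactate dehydrogenases, 3 PFKFB enzymes, 5 genes of pyruvate entry and the pyruvate dehydrogenase complex, and 4 pyruvate dehydrogenase kinases. All 33 passed the minimum abundance for testing, as did 13409 of the 18178 rows with a symbol. RNA was measured in 48 samples, 3 in each of 16 conditions, from murine conditionally immortalized striatal progenitor cells grown at the permissive temperature. STHdhQ111 cells carry mutant huntingtin on both alleles, STHdhQ7 cells carry the wild-type gene, and each genotype is a single line, so that genotype and line cannot be told apart. Cells were kept in serum-free medium for 24 hours. STHdhQ111 cells received DMSO vehicle or 1 of 14 compounds that the study lists as protective. Diacylglycerol kinase inhibitor II (DKI), selisistat, loxapine, cyproheptadine and meclizine were given at 10 µM, pizotifen at 5 µM and cysteamine at 250 µM. Sodium butyrate was given at 1 mM, 4-deoxypyridoxine (DOP) at 4 mM, fingolimod phosphate at 250 nM and trichostatin A at 10 nM. Nortriptyline was given at 1 nM, and the lowest dose, 0.5 nM, was that of haloperidol and of nicotinamide. STHdhQ7 cells received vehicle. In the study Group A stands for loxapine, pizotifen and cyproheptadine, while Group B stands for meclizine with DKI. The authors took these 5 compounds together from their RNA profiles in the same samples and parted them by their metabolite profiles, so that a change common to all 5 is not independent of the choice.

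Glycolysis turns glucose into pyruvate in the cytosol. SLC2A transporters admit glucose, hexokinase traps it, phosphofructokinase commits it, and the later steps yield ATP and NADH. PFKFB enzymes set the level of fructose 2,6-bisphosphate, the activator of phosphofructokinase. Lactate dehydrogenase converts pyruvate to lactate, which leaves through SLC16A transporters, while the mitochondrial pyruvate carrier and the pyruvate dehydrogenase complex pass pyruvate to respiration. Pyruvate dehydrogenase kinases switch that complex off. HIF1A raises many of these genes in low oxygen through sites with the core ACGTG or GCGTG, and MYC-type factors bind the E-box CACGTG.

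Sequences before the start of transcription were taken from RefSeq for GRCm38.p6, as windows of 300 bases with 250 before and 50 after the annotated start. Of the 33 genes, 32 had at least 1 window and 49 windows in all. The promoters of Hk2, Slc2a1 and Slc16a1 are printed because these genes rose under all 5 compounds of Groups A and B, and those of Ldha and Tpi1 because these genes differed between the groups. Capitals mark matches to the 5-letter cores of HIF sites named above, on either strand. The E-box reads the same on both strands and holds a core on each.
Hk2 (chr6:82774405-82774704, minus strand): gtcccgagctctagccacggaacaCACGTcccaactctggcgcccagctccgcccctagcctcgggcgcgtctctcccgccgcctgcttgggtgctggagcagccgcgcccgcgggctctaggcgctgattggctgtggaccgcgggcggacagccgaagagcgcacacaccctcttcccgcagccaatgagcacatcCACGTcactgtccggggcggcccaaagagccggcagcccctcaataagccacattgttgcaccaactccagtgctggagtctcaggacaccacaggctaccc
Slc2a1 (chr4:119108495-119108794, plus strand): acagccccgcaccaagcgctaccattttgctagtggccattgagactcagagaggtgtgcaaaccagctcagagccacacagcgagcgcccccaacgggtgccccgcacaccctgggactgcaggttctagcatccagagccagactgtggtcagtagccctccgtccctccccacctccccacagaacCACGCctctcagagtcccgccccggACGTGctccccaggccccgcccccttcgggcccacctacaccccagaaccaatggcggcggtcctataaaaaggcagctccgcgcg
Slc16a1 (chr3:104638414-104638713, plus strand): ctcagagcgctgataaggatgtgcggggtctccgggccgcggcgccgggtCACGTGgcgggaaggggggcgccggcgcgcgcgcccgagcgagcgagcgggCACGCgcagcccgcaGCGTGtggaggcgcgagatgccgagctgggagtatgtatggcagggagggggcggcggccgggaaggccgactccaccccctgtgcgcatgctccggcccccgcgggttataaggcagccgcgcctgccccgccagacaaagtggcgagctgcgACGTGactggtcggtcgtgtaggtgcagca
Ldha, first window (chr7:46845554-46845853, plus strand): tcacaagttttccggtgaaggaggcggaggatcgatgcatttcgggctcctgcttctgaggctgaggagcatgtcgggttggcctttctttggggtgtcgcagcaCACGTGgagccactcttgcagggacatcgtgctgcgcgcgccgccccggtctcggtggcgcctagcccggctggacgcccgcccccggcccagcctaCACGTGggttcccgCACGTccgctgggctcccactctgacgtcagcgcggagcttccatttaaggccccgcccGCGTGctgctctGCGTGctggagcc
Tpi1 (chr6:124814109-124814408, minus strand): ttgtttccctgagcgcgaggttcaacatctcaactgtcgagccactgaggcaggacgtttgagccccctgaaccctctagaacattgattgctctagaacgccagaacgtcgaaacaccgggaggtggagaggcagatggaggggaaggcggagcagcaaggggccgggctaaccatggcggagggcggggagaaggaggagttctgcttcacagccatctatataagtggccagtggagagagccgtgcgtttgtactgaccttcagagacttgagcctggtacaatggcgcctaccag

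Hk2 held 2 matches to ACGTG and none to GCGTG. Slc2a1 held 1 of each, and Slc16a1 held 3 and 2, with 1 CACGTG. In the first of the Ldha windows 5 matches to ACGTG and 2 to GCGTG were counted over both strands, with 2 CACGTG, and Tpi1 held no match to any of these motifs. Over the members, 44.9% of the 49 windows held ACGTG, against 19.6% of all 32841 windows, 57.1% held GCGTG, against 32.4%, and 12.2% held CACGTG, against 7.15%. The ATF4-type motif TGATGNAA was in 0 of the 49 windows and in 3.97% of all. The member windows were richer in G and C, with a median of 62% against 52.7%, and how far that difference sets the share of these GC-rich motifs was not tested. A match is a stretch of letters and not a measured site.

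The deposited values are normalized abundances on a log2 scale, in which rows with low values hardly vary. A log2 change of a low gene such as Slc2a3 or Slc16a3 can therefore be smaller than the change in its RNA. The table holds no read counts, the depth of each sample is unknown, and the median gene had a residual SD of 0.086 on the log2 scale, against 0.104 for the median member. Of markers of the labelled cell type, Vim lay at 14.8 to 15.7, Sox2 spanned 4.38 to 9.34, and Bcl11b lay below the minimum. The neuronal markers Rbfox3, Snap25 and Syt1, the astrocyte marker Gfap, the microglial markers Cx3cr1 and Aif1 and the endothelial marker Cdh5 were also below it, while mesenchymal Col1a1 lay at 13.6 to 15.1 and the leukocyte gene Ptprc at 7.36 to 10.9. The part of these marker levels in the results below was not tested. Samples were collected on 3 days at 3 times a day, in slots that differ between conditions. The vehicle controls shared their slots with selisistat, and cyproheptadine and DKI shared 2 of their 3 slots with them. The other compounds had no slot in common with vehicle, so for these the slot and the compound cannot be told apart in a comparison with vehicle. Values within slots are therefore also given for the main changes. For meclizine, pizotifen and trichostatin A these are against haloperidol and fingolimod phosphate, and for loxapine, sodium butyrate, DOP and cysteamine against nicotinamide and nortriptyline, compounds under which at most 1 member was called against vehicle.

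In vehicle-treated STHdhQ111 cells the abundance of the members, divided by annotated exonic length, put 1 isoform of most families well above the others. On this scale, log2 abundance per kilobase, Gapdh (11.94) and Pkm (11.91), the last enzyme of the pathway, were the highest members. Hk1 was at 8.04 and Hk2 at 4.85, Ldha at 10.44 and Ldhb at 6.49, Slc2a1 at 7.95 and Slc2a3 at 0.30, and Slc16a1 at 8.08 and Slc16a3 at -0.95. Among the phosphofructokinases Pfkm (8.61) stood over Pfkl (7.39) and Pfkp (5.93). Among the PFKFB genes Pfkfb4 (5.47) stood over Pfkfb2 (4.02) and Pfkfb3 (2.77). The kinase order was Pdk3 (7.76), Pdk1 (5.97), Pdk2 (5.54) and Pdk4 (3.61). The differences between neighbours in these families are larger than the residual SD of a member. That SD measures the spread of 1 gene between samples and not the error of a comparison between genes. The differences rest on annotated lengths and not on the transcripts these cells use.

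STHdhQ7 cells had higher RNA of the glucose transporters, most glycolytic enzymes and both lactate transporters than STHdhQ111 cells, and lower RNA of 3 of the 4 pyruvate dehydrogenase kinases. In bulk samples, fewer cells with an RNA and less of it per cell cannot be told apart. Of the 33 members 22 were called at an adjusted p under 0.05, 17 higher and 5 lower in STHdhQ7 cells. Over all genes tested 55.8% were called, 29.2% higher and 26.6% lower, so the share of members called lower (5 of 33) was under the background and that called higher above it. The median log2 difference was 0.16 over the members and 0.00398 over all genes tested.

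Slc2a3, the high-affinity glucose transporter of neurons, was at 5.28, 5.37 and 5.33 in the 3 STHdhQ7 samples and at 3.39, 3.04 and 3.03 in the STHdhQ111 samples. The groups did not overlap, and the log2 difference was 2.17 (SE 0.12, adjusted p = 1.24e-18), or 4.51-fold. Slc2a1, the widely expressed glucose transporter, was at 11.07, 10.70 and 10.85 in STHdhQ7 and at 9.77, 9.70 and 9.81 in STHdhQ111 cells. Its log2 difference was 1.12 (SE 0.11, adjusted p = 1.47e-11). Both lactate transporters were also higher, Slc16a1 by 0.46 and Slc16a3 by 0.53 on the log2 scale, the latter at the low end of the table.

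Aldoc, the aldolase isoform typical of brain, was at 6.67, 6.99 and 7.01 in STHdhQ7 and at 5.88, 5.75 and 5.87 in STHdhQ111 samples. The log2 difference was 1.05 (SE 0.13, adjusted p = 4.29e-09), with no overlap. Hk2, the inducible hexokinase, was at 8.77, 8.13 and 8.15 against 7.52, 7.42 and 7.33. STHdhQ7 replicate 1 stood above the other two, and the log2 difference was 0.92 (SE 0.14, adjusted p = 3.37e-07), with a lowest value of 0.70 over the alternatives. Pfkl, the liver-type phosphofructokinase, was at 11.16, 10.59 and 10.81 against 10.12, 10.07 and 10.21, a log2 difference of 0.72 (SE 0.15, adjusted p = 5.84e-05). Of the other phosphofructokinases Pfkm was not called, and Pfkp was lower in STHdhQ7 cells, by 0.21. The Pfkp call was lost without STHdhQ7 replicate 2 and without STHdhQ111 vehicle replicate 1 or 3, with a smallest difference of -0.12 (highest adjusted p = 0.255). Ldha, which favours the step from pyruvate to lactate, was at 12.97, 12.73 and 12.80 against 12.10, 12.11 and 12.28, with a log2 difference of 0.67 (SE 0.10, adjusted p = 4.17e-07). In lower glycolysis 4 of 6 enzymes were higher, Pgam1, Eno1, Eno2 and Pkm, while Gapdh and Pgk1 were not called.

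**Figure D1:**
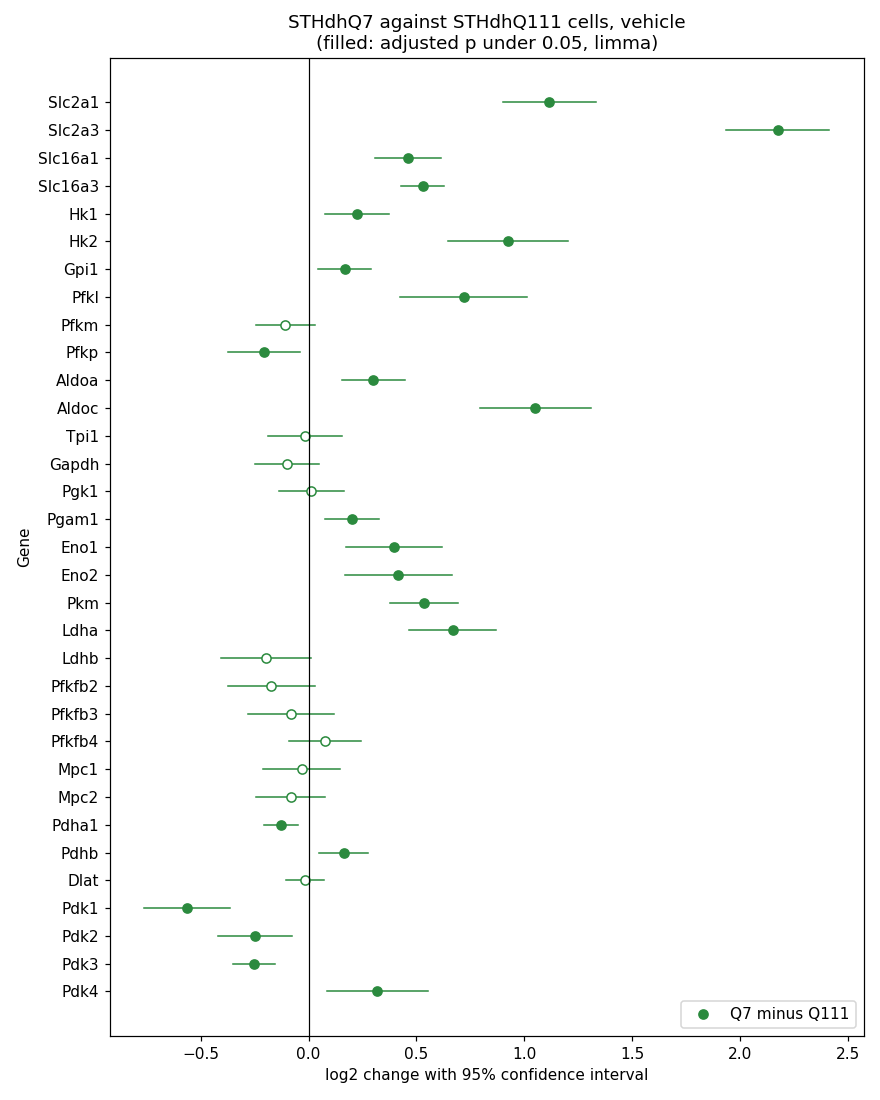
Log2 difference of each member between STHdhQ7 and STHdhQ111 vehicle controls (x axis, log2 units; y axis, genes in pathway order), with points for estimates and bars for 95% confidence intervals, 3 samples per line. Slc2a3 lies farthest to the right at 2.17, Pdk1 farthest to the left at -0.56, and the 3 PFKFB genes have open symbols around 0.

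None of the 3 PFKFB genes was called between the lines. The log2 differences were -0.17 for Pfkfb2 (95% interval -0.37 to 0.03), -0.08 for Pfkfb3 (-0.28 to 0.12) and 0.08 for Pfkfb4 (-0.09 to 0.24). Of the pyruvate dehydrogenase kinases, Pdk1 was at 8.48, 8.21 and 8.39 in STHdhQ7 and at 8.97, 8.83 and 8.97 in STHdhQ111 samples, a log2 difference of -0.56 (SE 0.10, adjusted p = 5.81e-06). Pdk2 and Pdk3 were both lower by 0.25, and the Pdk2 call was lost without STHdhQ7 replicate 1 and without STHdhQ111 vehicle replicate 3. Pdk4 was higher by 0.32, a call lost without either of STHdhQ7 replicates 2 and 3 and without either of the vehicle replicates 2 and 3. In the complex itself Pdha1 was lower (-0.13) and Pdhb higher (0.16), Dlat was not called, and neither subunit of the pyruvate carrier, Mpc1 and Mpc2, was called. The Pdha1 and Pdhb calls were both lost without STHdhQ7 replicate 2, and also with the compared samples alone in the fit.

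Against the STHdhQ111 vehicle control the number of members called ran from 0 to 16 by compound. The 3 vehicle samples are shared by all these comparisons. Under cyproheptadine 16 members were called, 14 higher and 2 lower, with 35.6% of all genes called, 17.5% higher and 18.2% lower. Loxapine had 10, 8 higher and 2 lower (21.9% of all genes, 10.1% higher and 11.8% lower). Pizotifen had 11, 9 higher and 2 lower (17.9%, 8.86% and 9.07%). Under these 3 compounds of Group A the members called were mostly higher, while genes in general were called about as often in each direction. DKI had 16, 5 higher and 11 lower (42.3%, 20.4% and 21.9%), and meclizine had 8, 5 higher and 3 lower (26.8%, 13.1% and 13.6%). Sodium butyrate had 10, 5 in each direction (37.5%, 19.6% and 17.8%), and DOP had 4, 1 higher and 3 lower (20.1%, 8.93% and 11.2%). For meclizine, sodium butyrate and DOP the share of members called was close to or under that of all genes. For DKI it was 48.5%, against 42.3% of all genes. Nicotinamide had 1 member, Ldhb, higher (10.4%, 2.82% and 7.59%). For cysteamine (7.83% of all genes), nortriptyline (3.83%), selisistat (0.515%), fingolimod phosphate (0.0597%), haloperidol (0%) and trichostatin A (13.1%) 0 members were called with limma. At an unadjusted p under 0.05 these had 6, 1, 2, 0, 1 and 2 members.

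Single libraries moved several of these counts. For meclizine 4 members were called without vehicle replicate 1, and 5 without vehicle replicate 2 or without meclizine replicate 2. Pizotifen kept 6 without vehicle replicate 1 or pizotifen replicate 3 and 7 without vehicle replicate 2. For loxapine 5 were left without its replicate 2, for sodium butyrate 6 without vehicle replicate 1, and for DOP 2 without its replicate 2. Nicotinamide had 0 without vehicle replicate 1 or 2 and 2 without vehicle replicate 3. Without vehicle replicate 3 cysteamine had 3 and nortriptyline 1, selisistat had 1 without its replicate 1 or 3, and trichostatin A had 1 without its replicate 3. Within slots the counts were 10 for meclizine (28.8% of all genes), 12 for pizotifen (17.3%) and 15 for loxapine (22.8%). They were 8 for sodium butyrate (30.8%), 2 for DOP (10.6%), 0 for trichostatin A (14.4%) and 0 for cysteamine (0.119%). At an unadjusted p under 0.05 trichostatin A then had 2 members and cysteamine 3. The within-slot counts fell to 6 for meclizine without its replicate 1, for pizotifen without its replicate 3 and for loxapine without its replicate 2, and to 8 for loxapine without its replicate 3. Sodium butyrate then had 5 without its replicate 2, DOP had 0 without its replicate 2 or 3 and 1 without nortriptyline replicate 1, and trichostatin A had 1 without its replicate 2. With only the 2 slots that they share with vehicle, cyproheptadine had 16 members called and DKI had 10. For cyproheptadine this was the same count as with all its samples, where 35.6% of all genes were called. For DKI the share of members was close to the 28.4% of all genes called with these slots.

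**Figure D2:**
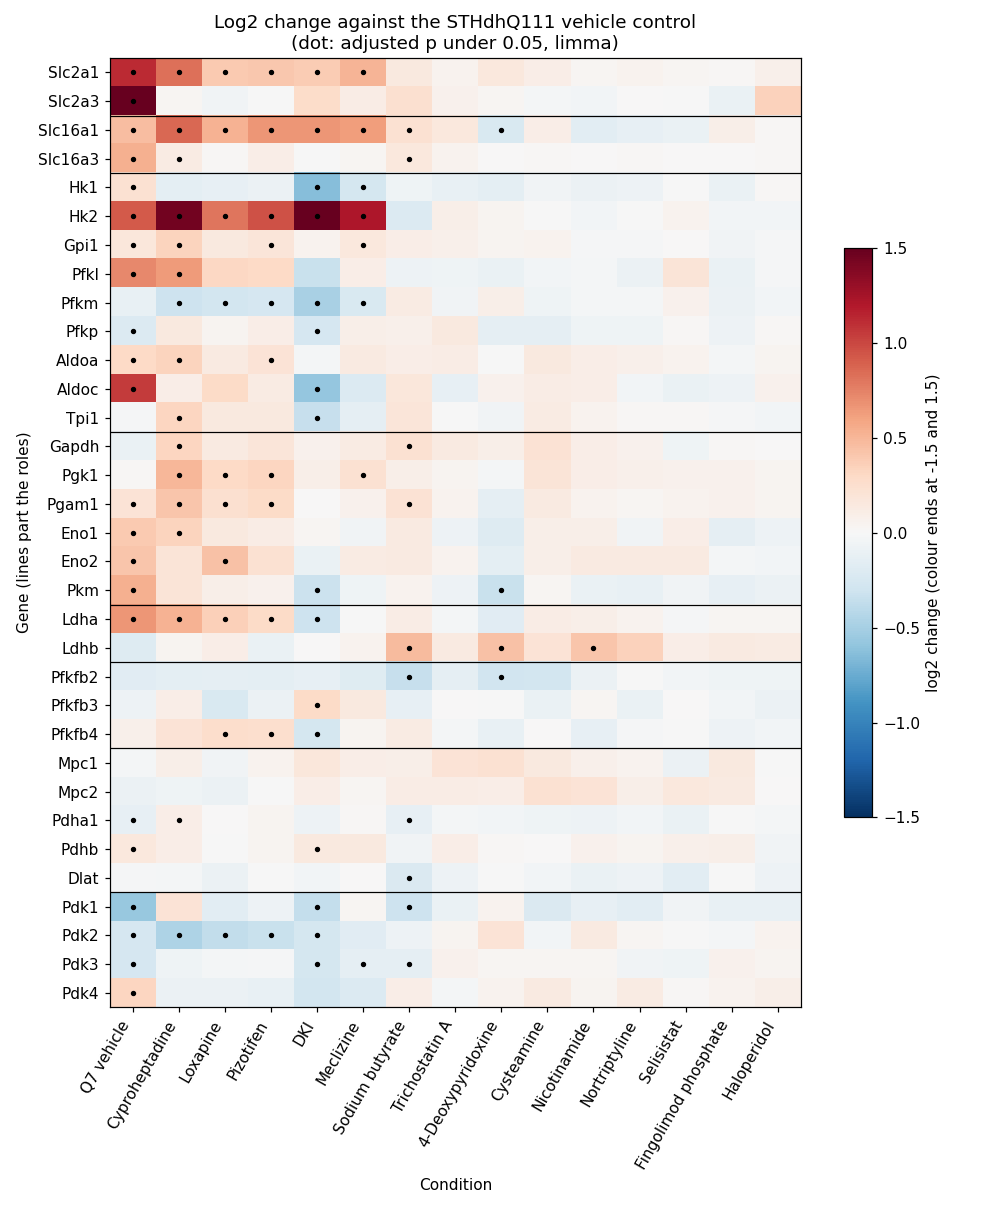
Log2 change of the 33 members (rows, with lines between roles) against the STHdhQ111 vehicle control in STHdhQ7 vehicle cells and under each compound (columns, 3 samples each), with dots for an adjusted p under 0.05 and colour ending at -1.5 and 1.5 on the log2 scale. Hk2, Slc2a1 and Slc16a1 are red in the columns of STHdhQ7 and of the 5 compounds of Groups A and B, and columns of the compounds at the lowest doses are near white.

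Hk2, Slc2a1 and Slc16a1 rose under each of the 5 compounds of Groups A and B, and Pfkm, the muscle-type phosphofructokinase, fell under each. Vehicle samples had Hk2 at 7.52, 7.42 and 7.33. Group A samples spanned 7.94 to 8.97 around a median of 8.40, and Group B samples 8.58 to 9.14 around 8.68, so that neither group overlapped the vehicle samples. The log2 change of Hk2 was 1.07 in Group A (SE 0.11, adjusted p = 3.32e-09, 2.10-fold, higher in 9 of 9 samples) and 1.37 in Group B (SE 0.12, adjusted p = 8.45e-12, 2.58-fold, 6 of 6). By compound it was 1.44 for cyproheptadine, 0.80 for loxapine, 0.96 for pizotifen, 1.53 for DKI and 1.21 for meclizine. Within slots it was 0.83 for loxapine, 1.00 for pizotifen and 1.25 for meclizine, each called.

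Slc16a1, which carries lactate and pyruvate across the membrane, was at 10.16, 10.29 and 10.23 in vehicle samples. It spanned 10.71 to 11.13 in Group A and 10.79 to 11.04 in Group B, again with no overlap. The log2 changes were 0.68 (SE 0.061, adjusted p = 2.48e-10) and 0.65 (SE 0.065, adjusted p = 2.65e-10), and the within-slot values of loxapine, pizotifen and meclizine were 0.66, 0.60 and 0.58, each called. Slc2a1 spanned 9.92 to 10.81 in Group A and 10.02 to 10.45 in Group B, above the highest vehicle sample at 9.81. Its log2 changes were 0.54 (SE 0.087, adjusted p = 7.31e-06) and 0.44 (SE 0.093, adjusted p = 0.000176), and within slots loxapine, pizotifen and meclizine gave 0.36, 0.36 and 0.46, each called. Both against vehicle and within slots, the Slc2a1 call was lost for loxapine without its replicate 2 and for pizotifen without its replicate 3. Pfkm was at 10.40, 10.32 and 10.34 in vehicle samples, at 10.02 to 10.16 in Group A and at 9.70 to 10.21 in Group B. It changed by -0.28 (SE 0.055, adjusted p = 0.000126) in Group A and by -0.36 (SE 0.059, adjusted p = 4.31e-06) in Group B, with called within-slot values of -0.25, -0.19 and -0.17 for the same compounds. Against vehicle the Pfkm calls for pizotifen and for meclizine were lost without vehicle replicate 1. Within slots they were lost in 2 of 18 alternatives for pizotifen and in 3 of 18 for meclizine. Pdk2, a kinase of pyruvate dehydrogenase, spanned 6.68 to 6.91 in Group A, against 7.23, 7.13 and 7.24 in vehicle samples, and 6.83 to 7.10 in Group B. Its log2 change was -0.39 in Group A (SE 0.069, adjusted p = 3.01e-05), and in Group B it was -0.22 (SE 0.073, adjusted p = 0.0149), a call that was lost without vehicle replicate 1 and without vehicle replicate 3. Within slots Pdk2 was called for loxapine (-0.45) and pizotifen (-0.34) and not for meclizine (-0.18, adjusted p = 0.0575).

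**Figure D3:**
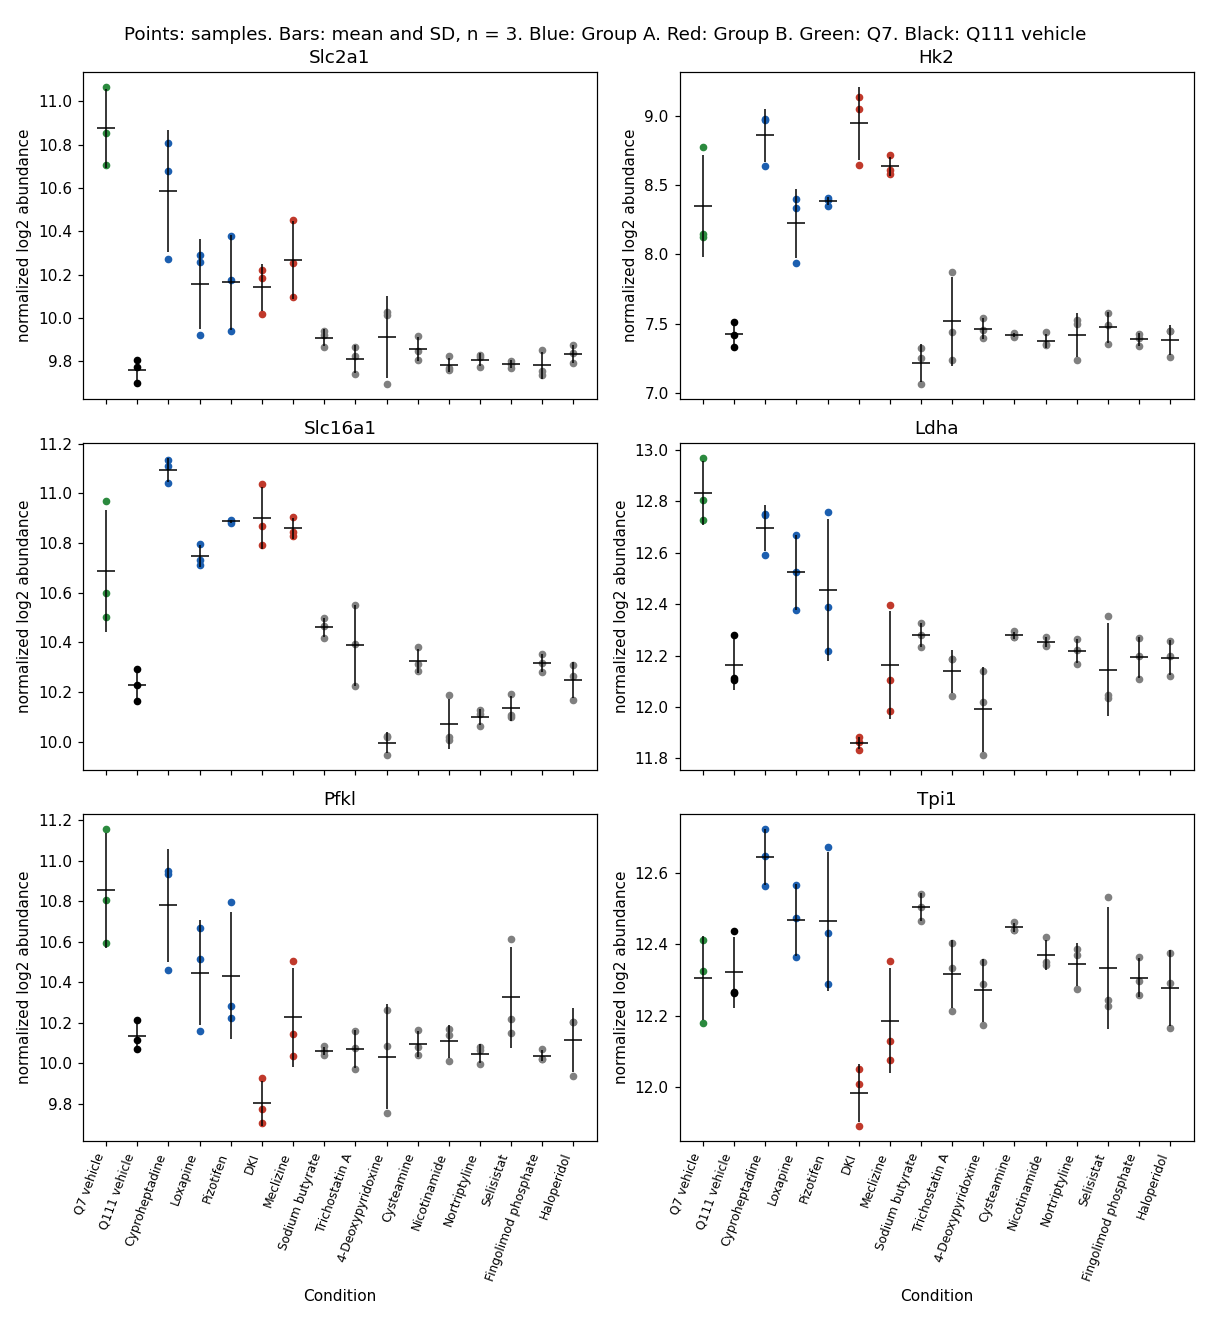
Normalized log2 abundance (y axis) of Slc2a1, Hk2, Slc16a1, Ldha, Pfkl and Tpi1 in every sample of the 16 conditions (x axis), with points for samples and bars for mean and SD of 3. For Hk2 all samples of Groups A and B lie above 7.52, the highest vehicle sample, whereas for Ldha the 3 DKI samples (11.83 to 11.88) lie below and the cyproheptadine samples (12.59 to 12.75) above the vehicle samples.

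Under Group A, glycolytic enzymes and Ldha were among the members that rose. Of the 33 members 15 changed, 13 higher and 2 lower, with 32.8% of all genes called, 15.6% higher and 17.2% lower. The median log2 change was 0.093 over the members and 0.00138 over all genes. Pfkl spanned 10.16 to 10.95 in Group A, above all vehicle samples in 8 of 9, with a log2 change of 0.42 (SE 0.12, adjusted p = 0.0058). Ldha spanned 12.22 to 12.76, above all vehicle samples in 8 of 9, with a change of 0.39 (SE 0.082, adjusted p = 0.00027). Pgk1 and Pgam1, of lower glycolysis, rose by 0.37 and 0.32, in 9 of 9 samples each, and Gapdh, Gpi1, Aldoa, Tpi1 and Eno2 rose by 0.20 to 0.29. By compound Pgk1, Pgam1 and Ldha were called for all 3, while the upper enzymes were called mostly for cyproheptadine, with 5 of 9 higher, against 3 of 9 for pizotifen and 1 of 9 for loxapine. The Ldha call for pizotifen was lost in 6 of 15 alternatives, among them that without pizotifen replicate 3, with a lowest change of 0.13. For loxapine the Ldha and Pgk1 calls were lost without its replicate 2. Pfkl was called for cyproheptadine (0.64) and not for loxapine (0.31) or pizotifen (0.30) against vehicle, and within slots it was called for loxapine (0.37) and pizotifen (0.36). These within-slot Pfkl calls were lost in 5 of 18 alternatives for loxapine and in 8 of 18 for pizotifen. Aldoa and Gpi1 were called for cyproheptadine and pizotifen and Gapdh for cyproheptadine alone, with 0.13 for loxapine and 0.18 for pizotifen. The pizotifen calls were lost in 6 of 15 alternatives for Aldoa and in 5 of 15 for Gpi1. Eno2 was called for loxapine alone (0.44), a call lost in 2 of 15. For Group A as a whole the Eno2 call was lost in 2 of 21 alternatives and the Gapdh call in 1. Of the PFKFB genes only Pfkfb4 changed, by 0.24, and of the pyruvate carrier, dehydrogenase and kinase genes only Pdk2. Eno1 was not called (log2 change 0.20, adjusted p = 0.091). A second row, which the table lists jointly for Eno1 and its retrogene copy Eno1b, changed by 0.24 (adjusted p = 0.000454), and the 2 rows summed changed by 0.23 (adjusted p = 0.00273).

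Under Group B the same transporters and Hk2 rose while several enzymes fell. Of the 33 members 12 changed, 5 higher and 7 lower, with 41% of all genes called, 19.8% higher and 21.2% lower, so that the share of members called was under the background and that called lower was equal to it. Hk1, the constitutive hexokinase, was at 11.26, 11.01 and 11.12 in vehicle samples and at 10.41 to 10.95 in Group B, a log2 change of -0.45 (SE 0.064, adjusted p = 3.97e-07). Hk1 changed by -0.64 under DKI and by -0.26 under meclizine, and was not called for any Group A compound. Aldoc spanned 4.97 to 5.748, just under the lowest vehicle sample at 5.754, and changed by -0.39 (SE 0.11, adjusted p = 0.00372). Pkm changed by -0.19 and Pdk3 by -0.20, while Pfkfb3 (0.22) and Pdhb (0.15) rose. By compound Aldoc (-0.59) and Pkm (-0.32) were called lower under DKI, and neither was called under meclizine. Under meclizine the glycolytic enzymes called lower were Hk1 and Pfkm, while Gpi1 (0.16) and Pgk1 (0.22) were called higher. The meclizine calls were lost in 8 of 15 alternatives for Gpi1 and in 3 of 15 for Pgk1. The Pfkfb3 call was lost in 8 of 17 alternatives, among them those without any 1 of the 3 vehicle samples, and the Pkm call in 4 of 18. Ldha was not called in Group B (log2 change -0.16, 95% interval -0.33 to 0.02), with 4 of 6 samples below and 1 above all vehicle samples.

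Tpi1, the triose isomerase at the end of upper glycolysis, was the only member called in opposite directions in Group A and Group B as a whole. Vehicle samples were at 12.27, 12.26 and 12.44, Group A samples at 12.29 to 12.72 and Group B samples at 11.89 to 12.35, so that both groups overlapped the vehicle samples. The log2 change was 0.20 in Group A (SE 0.069, adjusted p = 0.0209) and -0.24 in Group B (SE 0.073, adjusted p = 0.00788). The rise in Group A was not called without vehicle replicate 1 or 2, and the fall in Group B not without vehicle replicate 3. By compound the change was called for cyproheptadine (0.32) and DKI (-0.34), and was 0.15 for loxapine, 0.14 for pizotifen and -0.14 for meclizine. Ldha and Pfkfb4 too were called in opposite directions by compound. Ldha was lower for DKI (-0.31) and higher for each Group A compound. Pfkfb4 was lower for DKI (-0.26) and higher for loxapine (0.26) and pizotifen (0.25). The DKI calls were lost in 2 of 16 alternatives for Ldha and in 3 of 16 for Pfkfb4. Those of Pfkfb4 for loxapine and pizotifen were lost in 3 of 15 and 5 of 15.

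**Figure D4:**
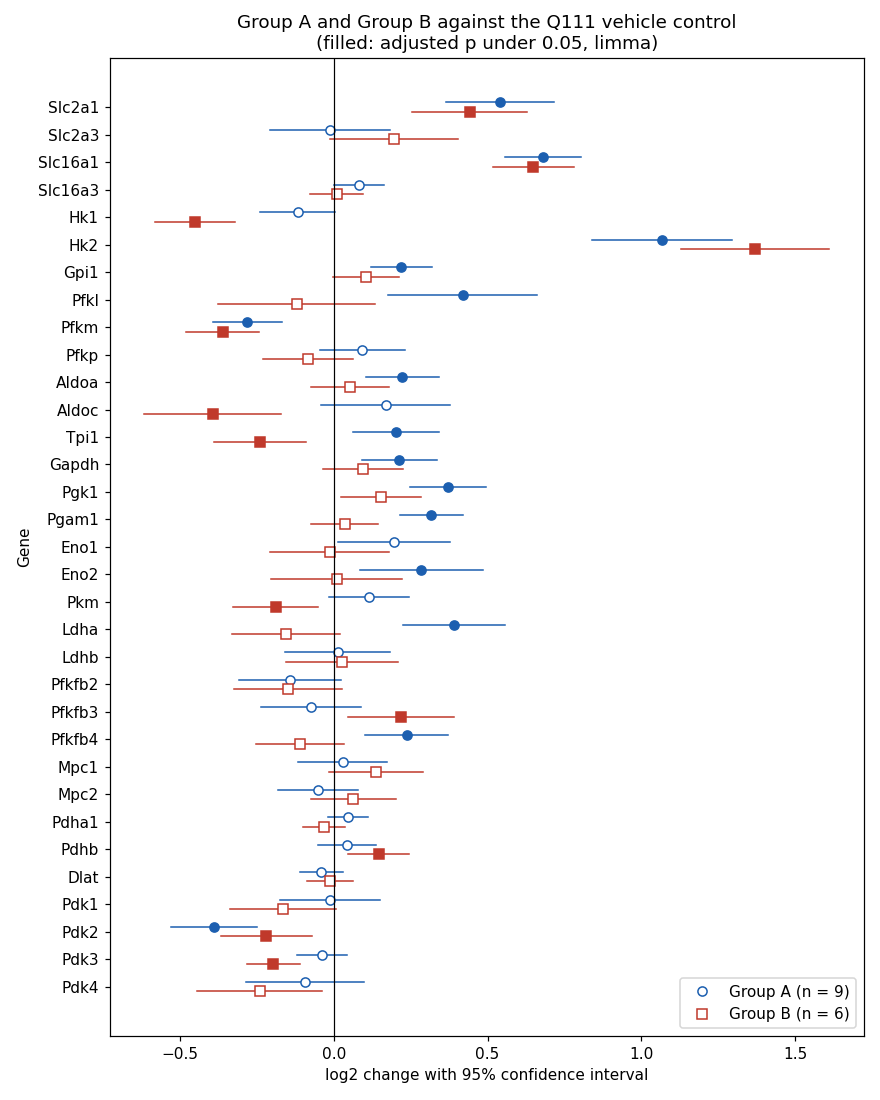
Log2 change of each member (y axis, pathway order) against the STHdhQ111 vehicle control for Group A (blue circles, 9 samples) and Group B (red squares, 6 samples), with 95% confidence intervals on the x axis in log2 units and filled symbols for an adjusted p under 0.05. The 2 groups lie together for Slc2a1, Slc16a1 and Hk2 and apart for Ldha (0.39 and -0.16), Tpi1 (0.20 and -0.24) and Hk1 (-0.12 and -0.45).

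Tested directly, without the vehicle samples, most members were lower in Group B than in Group A. Of the 33 members 22 were called, 5 higher and 17 lower in Group B, against 41.3% of all genes, 21.4% higher and 19.9% lower. The median log2 difference was -0.12 over the members and 0.00196 over all genes. Aldoc differed by -0.56 (SE 0.082, adjusted p = 5.08e-07), Ldha by -0.55 (SE 0.065, adjusted p = 8.06e-09) and Pfkl by -0.54 (SE 0.094, adjusted p = 1.18e-05). Tpi1 differed by -0.44 (SE 0.055, adjusted p = 1.89e-08), Pfkfb4 by -0.35 (SE 0.053, adjusted p = 1.24e-06) and Hk1 by -0.34 (SE 0.048, adjusted p = 3.71e-07). For each of these but Pfkfb4, 5 of the 6 Group B samples lay below all 9 Group A samples. Hk2, Pfkfb3, Slc2a3, Pdk2 and Pdhb were higher in Group B, by 0.30, 0.29, 0.21, 0.17 and 0.10. The intervals of Slc16a1 (-0.13 to 0.07) and Slc2a1 (-0.24 to 0.04) included 0, and so did those of Pfkm, Ldhb, Pfkfb2 and Dlat.

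Comparisons between the groups within collection slots were possible for 2 pairs. DKI and cyproheptadine, both at 10 µM and in the same 3 slots, gave 21 members called, 0 higher and 21 lower under DKI, where 28.6% of all genes were called, 14.7% higher and 13.9% lower. Pfkl was at 9.71, 9.77 and 9.92 with DKI and at 10.46, 10.95 and 10.93 with cyproheptadine, a log2 difference of -0.98 (SE 0.15, adjusted p = 1.94e-06). Ldha was at 11.83, 11.86 and 11.88 against 12.59, 12.75 and 12.75, a difference of -0.84 (SE 0.10, adjusted p = 3.13e-08). Aldoc differed by -0.68, Tpi1 by -0.66, Pdk1 by -0.56 and Pkm by -0.51, and each of these 6 genes had no overlap between the compounds. Slc2a1 differed by -0.45 (SE 0.11, adjusted p = 0.00137), whereas Hk2 did not pass the test (0.09, adjusted p = 0.701). Meclizine at 10 µM and pizotifen at 5 µM shared slots at unequal doses, and their values are set side by side without a comparison of the drugs' potency. The model called 3 members, Ldha (-0.29), Tpi1 (-0.28) and Pgam1 (-0.23), all lower with meclizine, with 16.2% of all genes called, 8.26% higher and 7.97% lower. No member was called without meclizine replicate 1, meclizine replicate 3 or pizotifen replicate 3. With the compared samples alone in the fit, all 3 calls were lost, and 1 other member was called, higher with meclizine. Ldha was at 12.11, 12.40 and 11.99 with meclizine and at 12.22, 12.39 and 12.76 with pizotifen. Whether the difference of the first pair exceeds that of the second was not tested.

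The balance within isoform pairs was followed as the log2 difference of 2 genes in each sample, which does not depend on gene length for a change. Hk2 minus Hk1 was -3.71 ± 0.10 (SD, n = 3) in vehicle-treated STHdhQ111 cells and -3.01 ± 0.47 (n = 3) in STHdhQ7 cells. It was -2.52 ± 0.34 (n = 9) in Group A and -1.89 ± 0.44 (n = 6) in Group B, with the DKI samples highest at -1.54 ± 0.35 (n = 3). Every Group A and Group B sample lay above the highest vehicle sample at -3.59, while the lowest Group A sample was at -3.05. Ldha minus Ldhb was 5.03 ± 0.05 in the vehicle control, 5.89 ± 0.47 in STHdhQ7 cells, 5.41 ± 0.19 in Group A and 4.85 ± 0.23 in Group B. The SD of STHdhQ7 reflects 1 sample at 6.43, in which Ldhb was at 6.54 against 7.13 and 7.16 in the other two. Pfkfb3 minus Pfkfb4 was -2.07 ± 0.06 in the vehicle control, -2.38 ± 0.24 in Group A and -1.74 ± 0.31 in Group B. These values are given without a test.

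**Figure D5:**
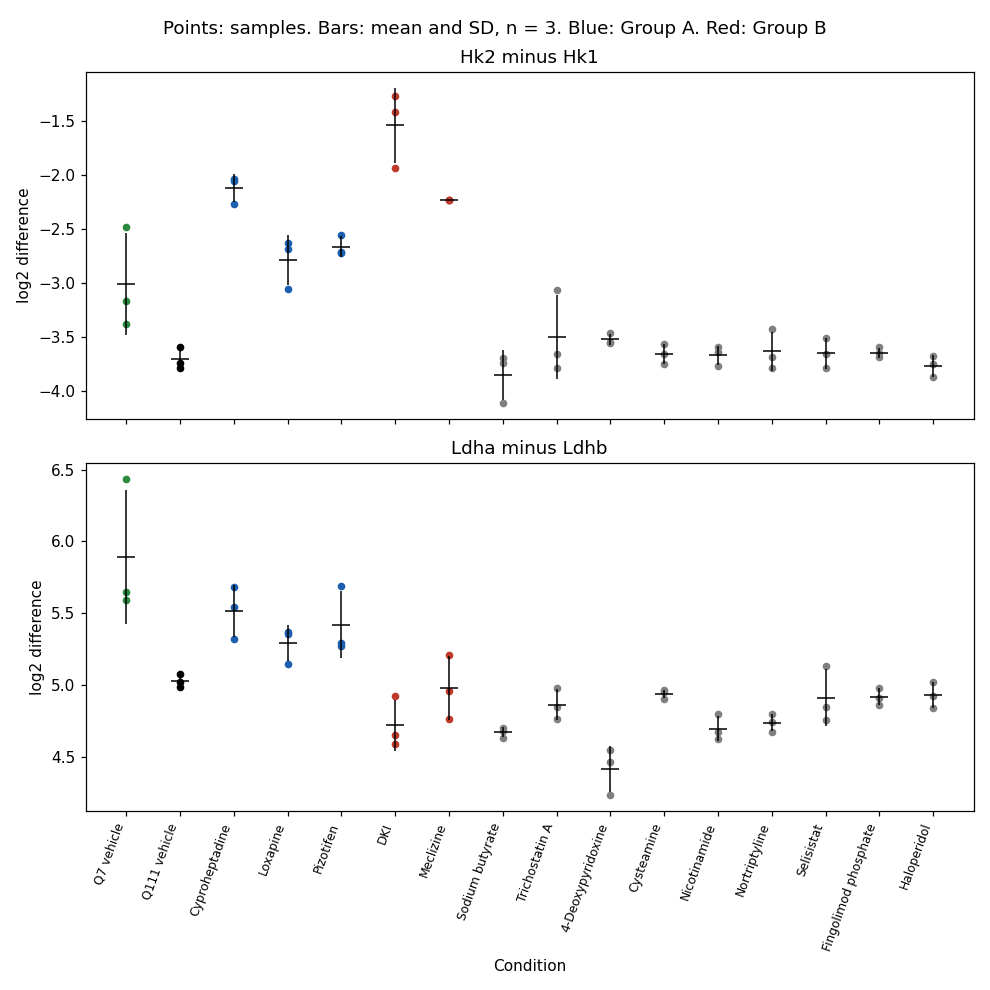
Log2 difference of Hk2 and Hk1 (upper panel) and of Ldha and Ldhb (lower panel) in each sample (y axis, log2 units) of the 16 conditions (x axis), with points for samples and bars for mean and SD of 3. In the upper panel the samples of Groups A and B, between -3.05 and -1.27, lie above the vehicle samples, and in the lower panel DOP is lowest at 4.41 and STHdhQ7 highest at 5.89.

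Sodium butyrate, an inhibitor of histone deacetylases, had 10 members called against vehicle and 8 within slots, in both cases a share under that of all genes. With only the compared samples in the fit, 15 were called within slots, a share above the 35.3% of all genes. Dlat, the acetyltransferase subunit of the pyruvate dehydrogenase complex, was at 9.32, 9.37 and 9.38, below the vehicle samples at 9.59, 9.59 and 9.54. It changed by -0.21 against vehicle (SE 0.043, adjusted p = 0.000151) and by -0.13 within slots (adjusted p = 0.00808). Pfkfb2 was at 6.53, 6.51 and 6.56 against 7.04, 6.94 and 6.66 in vehicle samples, with a log2 change of -0.35 (SE 0.10, adjusted p = 0.00603) and a within-slot value of -0.30 (adjusted p = 0.00814). The Pfkfb2 call against vehicle was lost without vehicle replicate 1. Slc16a1 rose by 0.23 against vehicle (SE 0.075, adjusted p = 0.0138), a call lost without vehicle replicate 1, and by 0.37 within slots (adjusted p = 2.71e-05). Pdk1 changed by -0.31 (SE 0.098, adjusted p = 0.0117), a call lost without vehicle replicate 1 or sodium butyrate replicate 3, and was not called within slots (-0.17, adjusted p = 0.132). Gapdh and Pgam1 rose by 0.23 and 0.22 against vehicle, and of the pair only Pgam1 (0.18) was called within slots. Trichostatin A, another inhibitor of these enzymes, was given at 10 nM and had 0 members called by limma, against vehicle or within slots.

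Ldhb, the isoform that favours the step from lactate to pyruvate, rose under sodium butyrate and DOP against vehicle, but was not called within slots. It was at 7.62, 7.60 and 7.60 with sodium butyrate and at 7.68, 7.58 and 7.48 with DOP, against 7.12, 7.03 and 7.26 in vehicle samples. The log2 changes were 0.47 (SE 0.10, adjusted p = 0.000411) and 0.44 (SE 0.10, adjusted p = 0.00225). Nicotinamide and nortriptyline, at 0.5 nM and 1 nM in the same slots, gave 0.42 (adjusted p = 0.00765) and 0.34 (adjusted p = 0.0507). Against these 2 the change was 0.09 for sodium butyrate (adjusted p = 0.472) and 0.06 for DOP (adjusted p = 0.74). Loxapine and cysteamine, also of these slots, were not called against vehicle for Ldhb (0.09 and 0.20). Under DOP, which antagonizes vitamin B6, Pkm was at 13.98, 13.79 and 13.94, against 14.23, 14.17 and 14.31, and changed by -0.33 against vehicle (SE 0.078, adjusted p = 0.00225) and by -0.23 within slots (adjusted p = 0.0227). Pfkfb2 changed by -0.28 against vehicle and was not called within slots, at a like value (-0.23, adjusted p = 0.0779). Slc16a1 changed by -0.23 against vehicle and was not called within slots either (-0.09, adjusted p = 0.417).

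Other genes of the pathway, outside the 33 members, were counted in lists, where 55.8% of all genes were called in STHdhQ7 cells, 32.8% in Group A and 41% in Group B. Of 20 tested genes for side steps of glycolysis, 12 were higher and 3 lower in STHdhQ7 cells, 8 higher and 1 lower in Group A, and 4 higher and 1 lower in Group B. The median log2 changes were 0.42, 0.088 and -0.00028, beside 0.00398, 0.00138 and -0.00409 over all genes. Of 16 genes around pyruvate, 6 were higher and 5 lower in STHdhQ7 cells, 7 and 4 in Group A, and 5 and 4 in Group B. Of 7 genes of the pentose phosphate pathway, 1 was higher and 3 lower in STHdhQ7 cells, and 3 were higher and 0 lower in each of the groups. The share of the pentose phosphate list called in STHdhQ7 cells and in Group B was close to that of all genes. The largest differences among these in STHdhQ7 cells were higher Slc2a6 (1.62) and muscle enolase Eno3 (1.503) and lower pyruvate carboxylase Pcx (-0.79) and Gpd1l (-0.70). In Group A they were higher Slc2a6 (0.80) and the alanine aminotransferase Gpt2 (0.73) and lower Pdpr (-0.71) and Pdp1 (-0.53), a regulatory and a catalytic subunit of the phosphatase that switches pyruvate dehydrogenase on. In Group B Gpt2 (1.21) and mitochondrial Pck2 (0.81) rose most, and Pdp1 (-0.47) and Gpd1l (-0.42) fell most.

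Genes under regulators of these pathways were counted in the same way, and these counts too stand against 55.8%, 32.8%, 41% and 41.3% of all genes called in STHdhQ7 cells, Group A, Group B and Group B against Group A. Of 14 HIF targets outside glycolysis, 7 were higher and 4 lower in STHdhQ7 cells, 9 higher and 0 lower in Group A, and 3 higher and 0 lower in Group B. Group B against Group A had 2 higher and 9 lower, with a median of -0.16. Of 9 ATF4 targets, 8 were higher in STHdhQ7 cells, 9 in Group A and 9 in Group B, and 9 were higher in Group B than in Group A, with a median difference of 0.51. The HIF list includes Hif1a and the ATF4 list includes Atf4, so each also counts a regulator's own transcript. Of the 4 genes for glucose sensing, 3 were lower in STHdhQ7 cells, 3 in Group A and 2 in Group B, and 0 were higher. The part of these regulators in the changes of the members was not tested.

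Some member values are less certain for their gene. Annotated genes overlap 14 members on the other strand, namely Slc2a1, Hk1, Hk2, Gpi1, Pfkm, Pfkp, Aldoa, Tpi1, Gapdh, Pfkfb2, Pfkfb3, Mpc1, Pdha1 and Pdk2, and 8 on the same strand, namely Slc2a1, Slc2a3, Slc16a1, Pfkm, Pkm, Pfkfb2, Pfkfb3 and Mpc2. Among the former are Hk1os at Hk1 and Spsb2 at Tpi1, and the strand setting of the counting is not given in the sources used here. The Gapdh row is listed jointly with a copy, Gapdh-ps15, and Eno1 has the retrogene described above, so reads may be split between near-identical copies. In GENCODE for GRCm38 Hk2 (ENSMUSG00000000628) lies on chromosome 6 from 82725025 to 82774454 on the minus strand, Slc2a1 (ENSMUSG00000028645) on chromosome 4 from 119108711 to 119137983 on the plus strand and Ldha (ENSMUSG00000063229) on chromosome 7 from 46841475 to 46855627 on the plus strand.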

How the data were processed

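RNA was poly(A)-selected, made into directional libraries and sequenced as single-end reads by the authors. Per the labels and the study's methods they used Trimmomatic 0.36 for trimming, the GRCm38.p5 transcriptome as reference, RSEM for quantification, and DESeq2. The deposited file holds normalized abundances, used here as log2 values, since they run from -2.34 to 18.62 and their sums after back-transformation differ between samples by at most 1.11 times. The transformation is not named, and no counts, depths or counting errors could be derived. Columns of other samples numbered 0.

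Samples were grouped by their labels, which do not say that replicates came from separate cultures, so p-values measure the spread between these samples. With limma 3.58.1 in R 4.3.3, 16 conditions and the collection day were fitted per gene over all 48 samples (30 residual degrees of freedom, variances moderated with a trend). Rows with a symbol and a mean of at least 1 were tested, and p-values, two-sided, were adjusted by Benjamini-Hochberg over all 13409, with a threshold of 0.05. The members and lists were chosen with earlier results of these data known. All members could be named; full statistics went to at most 6 called members of largest change per comparison, and to members called in opposite directions in Groups A and B, and 2 rising and 2 falling genes were named among other pathway genes. On simulated data for meclizine with all 13409 genes, 96 of 100 genes changed by 0.5 and 99 of 100 changed by 1 were recovered, with 15 false calls. Alternatives were other minimums, other terms, fits of the compared samples alone, no trend, median centring and leaving out each replicate. Lengths and positions came from GENCODE M21, promoters from RefSeq, and plots from matplotlib 3.10.9 (Python 3.11.15). Some cell type markers are not reported here.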

Additional observations from a re-analysis of the deposited data

Results flagged for a closer look

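For 7 members the changes in Group A and Group B against the vehicle control had opposite signs and the groups differed by the direct limma test. The log2 differences, Group B minus Group A, were -0.54 for Pfkl, -0.56 for Aldoc, -0.44 for Tpi1, -0.30 for Pkm, -0.55 for Ldha, -0.35 for Pfkfb4 and 0.29 for Pfkfb3. Of these, Tpi1 alone was called against vehicle in both groups. DKI against cyproheptadine, within the same slots, gave -0.98 for Pfkl, -0.84 for Ldha and 0.19 for Pfkfb3, of which the last was not called.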

How the results depend on the processing

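No named change of a member reversed under any alternative. Replicate numbers followed the collection day in the labels; the exceptions were DKI and cyproheptadine, whose replicate 1 has day 3. After condition means were removed, samples with the same number had a mean correlation of -0.0487 and those with other numbers 0.0245, and 1 of 120 pairs of conditions had every same-number correlation over 0.1, so the numbers did not pair the samples. With the replicate number as a block in place of the day, nortriptyline had 1 member called in place of 0, and the 218 named changes kept their calls. Nortriptyline also had 1 with a minimum of 6, without the day term, with median centring and with the compared samples alone, and cysteamine had 1 with the minimum of 6, without the day term and without the variance trend. With the compared samples alone, cysteamine had 4 (12.8% of all genes called), meclizine 5 (24.2%) and meclizine against pizotifen 1 (12.7%). That 1 member was higher with meclizine and was not among those called in the main fit. Within slots, the compared samples alone gave trichostatin A 1 (14.2%), sodium butyrate 15 (35.3%), DOP 6 (12.4%) and cysteamine 1 (1.51%). For sodium butyrate this share of members was above that of all genes, unlike in the main fit. For DKI 10 were called with the shared slots alone (28.4% of all genes), an alternative chosen after seeing the data. The cause of these shifts was not tested. Of the 218 named changes 34 lost the call with the compared samples alone, 19 with no minimum and 14 with the collection time as a term. Leaving out 1 replicate gave 2 to 4 members for DOP, 0 to 3 for cysteamine, 5 to 13 for loxapine, 4 to 8 for meclizine, 0 to 2 for nicotinamide, 0 to 1 for nortriptyline, 6 to 11 for pizotifen, 0 to 1 for selisistat, 6 to 11 for sodium butyrate, 0 to 1 for trichostatin A and 0 to 4 for meclizine against pizotifen. Within slots it gave 6 to 9 for meclizine, 6 to 13 for pizotifen, 0 to 1 for trichostatin A, 6 to 15 for loxapine, 5 to 8 for sodium butyrate and 0 to 3 for DOP. With unknown depth, precision rests on 3 samples per condition.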

Other observations

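Under sodium butyrate the wider pathway lists were counted against vehicle, where 37.5% of all genes were called, and within slots, where 30.8% were. Of 20 genes for side steps of glycolysis 8 were higher and 3 lower against vehicle, and within slots 7 were higher and 0 lower. Of 16 genes around pyruvate 4 were higher and 3 lower, and within slots 5 and 2. Of 7 genes of the pentose phosphate pathway 2 were higher and 3 lower, with a median log2 change of -0.15, and within slots 1 was higher and 3 were lower, with a median of -0.041.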
